A study of Mus musculus with 8 samples.

Results

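The suppressors of cytokine signalling (SOCS) form a family of 8 genes in the mouse, Cish and Socs1 to Socs7, and their RNA was read in 3 sorted populations of spleen CD4 T cells. All 8 genes were taken by name from the 54837 genes of the count table, whatever their values, and all 8 passed the filter on low counts that left 18851 genes for testing. The first population, called GFPhi here, was sorted as TIM-3+FLAG+GFP+FoxP3+ from mice that carried both Foxp3-eGFP-Cre-ERT2 and the FSF-TIM-3 allele (n = 3 libraries). The second, GFPlow, was sorted from the same genotype as TIM-3+FLAG+GFP-FoxP3- (n = 3). The third, WT, was TIM-3-FLAG-GFP+FoxP3+ and came from Foxp3-eGFP-Cre-ERT2 mice without the TIM-3 allele (n = 2). All 3 groups carry the Cre and eGFP alleles at Foxp3 and were given tamoxifen on 5 consecutive days before the spleen was taken. The study compared regulatory T cells (Tregs) with and without the TIM-3 transgene. Ages are not stated in the sources used here. The libraries of one group are numbered in the labels, which do not say that each number is a separate mouse, so p-values measure only the spread between these libraries.

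SOCS proteins are feedback inhibitors of cytokine receptors. A cytokine activates receptor-bound JAK kinases, which phosphorylate STAT transcription factors, and the STATs switch on SOCS genes. Each SOCS protein has an SH2 domain, which binds phosphotyrosine, and a SOCS box, which recruits elongins and a cullin ubiquitin ligase. In mouse T cells IL-2 acts through STAT5, of which Cish and Socs2 are well-known target genes, while Socs1 is known for limiting interferon signalling and Socs3 for limiting receptors that share gp130. Tregs carry the high-affinity IL-2 receptor and depend on IL-2.

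The promoters of Cish, Socs1 and Socs3 are shown first, out of the 4 genes whose windows were used. The GFPhi libraries of Cish and Socs1 all lay above the GFPlow libraries, and those of Socs3 overlapped. Of these genes only Cish passed edgeR's test between GFPhi and GFPlow. Socs2, which passed as well, had no window among the 4. RefSeq windows of 250 bases before to 50 after an annotated start, on GRCm38.p6, were used for 4 of the 8 genes, Cish, Socs1, Socs3 and Socs4. From 180 bases before the start to 25 after it, the stretches read 5′ to 3′ on the strand of the gene, with matches to a motif in capitals. They lie at chr9:107296479-107296683 on the plus strand (Cish), chr16:10785512-10785716 on the minus strand (Socs1) and chr11:117969342-117969546 on the minus strand (Socs3). The starts used for Cish and Socs3 both lie inside the annotated gene, downstream of its first base.

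Cish: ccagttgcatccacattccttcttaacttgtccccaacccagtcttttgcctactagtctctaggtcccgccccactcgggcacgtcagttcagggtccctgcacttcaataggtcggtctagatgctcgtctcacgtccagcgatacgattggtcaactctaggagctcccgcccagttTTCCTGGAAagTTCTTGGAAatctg
Socs1: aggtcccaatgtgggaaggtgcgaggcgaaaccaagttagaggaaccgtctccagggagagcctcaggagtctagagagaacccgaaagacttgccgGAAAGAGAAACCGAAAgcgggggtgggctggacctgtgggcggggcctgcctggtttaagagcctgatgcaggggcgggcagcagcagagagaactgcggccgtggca
Socs3: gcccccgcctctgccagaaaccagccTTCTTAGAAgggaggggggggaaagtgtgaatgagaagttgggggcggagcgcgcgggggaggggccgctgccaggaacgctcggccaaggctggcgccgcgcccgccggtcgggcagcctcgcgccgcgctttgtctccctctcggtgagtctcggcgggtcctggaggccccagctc

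TTCNNNGAA is the palindrome that STAT factors such as STAT5 are known to bind, and GAAANNGAAA is the repeat known for interferon regulatory factors. Searched on both strands, the 300 bases of the Cish window held TTCNNNGAA at 2 places. These were TTCCTGGAA from base 1, the start used, and TTCTTGGAA from base 12. Of 32851 RefSeq windows of the same length, 8.3% held at least 1 such match and 0.457% held 2 or more. The Socs1 window held GAAANNGAAA at 2 places that share 4 bases, GAAAGAGAAA from base -83 and GAAACCGAAA from base -77. Over all windows 3.44% held this repeat and 0.225% held it at 2 or more places. The Socs3 window held TTCNNNGAA once, as TTCTTAGAA from base -154. The Socs4 window held neither motif, nor the STAT motif with a wider gap, TTCNNNNGAA, which 6.95% of windows held.

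Sequencing depth was similar across libraries, at 44446215 to 55388756 counts, but WT library 1 differed from the rest. It had counts in 18599 genes against 21248 to 22185 in the others, 6.54% of its counts were mitochondrial against 2.36% to 2.78%, and 15.8% came from ribosomal protein genes against 6.37% to 7.24%. Results on the SOCS genes that rest on it are therefore given with and without it. The labels were checked on their own genes, in CPM, each gene's share of the library's reads after TMM scaling (trimmed mean of M-values), which is the level used throughout. Havcr2, the TIM-3 gene, had 1520, 1080 and 1790 CPM in GFPhi, 260, 127 and 538 CPM in GFPlow, and 0.876 and 0.172 CPM in WT. Foxp3 had 60.2, 68.1 and 81.0 CPM in GFPhi, 2.45, 1.97 and 4.82 CPM in GFPlow, and 41.7 and 63.2 CPM in WT. The sums of the 4 CD4 T cell markers were 3070 to 3270 CPM in GFPhi, 3780 to 4000 CPM in GFPlow and 3340 to 5600 CPM in WT. The Treg list of 5 genes summed to 2100 to 2210 CPM in GFPhi, 215 to 291 CPM in GFPlow and 2450 to 3720 CPM in WT.

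SOCS family RNA was most abundant in GFPhi and in WT library 2. Summed over the 8 genes it reached 580.5, 584.9 and 649.6 CPM in GFPhi, 205, 191.9 and 229.2 CPM in GFPlow, and 389.8 and 587.4 CPM in WT. Genes are compared with each other only per length, here as CPM per kilobase of all annotated exons merged. On this scale the GFPhi order was Socs1 (mean level 58.5), Cish (36.3), Socs3 (13.2), Socs2 (9.48), Socs4 (3.98), Socs5 (3.4), Socs6 (1.61) and Socs7 (0.798). Only the neighbours Socs4 and Socs5 overlapped between GFPhi libraries. In GFPlow the order of mean levels per kilobase was Socs1 (22.5), Socs3 (13.8), Cish (5.11), Socs4 (4.56), Socs5 (1.61), Socs6 (1.35), Socs2 (0.835) and Socs7 (0.781). There Cish overlapped Socs4, and the last 4 genes each overlapped their neighbour. In WT, Socs1 (10.3 and 52.7), Cish (13.4 and 34.8) and Socs2 (16.4 and 10.2) were the highest per kilobase, and their order differed between the libraries.

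The place of Cish and Socs2 in that order depends on the length used, because merged exons are 6419 bases for Cish and 9531 for Socs2 while their principal transcripts are 2850 and 2222 bases. Per kilobase of principal transcript, a choice added after the data were seen, Cish led in GFPhi with 81.8, before Socs1 with 58.5 and Socs2 with 40.6. On the same scale Socs1 stayed highest in GFPlow with 22.5, before Socs3 with 15.6 and Cish with 11.5. The make-up of family RNA also differed between the populations. Per kilobase of merged exons, Socs3 made up 9.11% to 11.2% of family RNA in GFPhi, 19.5% to 33.7% in GFPlow and 5.37% to 6.72% in WT. Cish made up 26.2% to 32.5% in GFPhi, 8.72% to 12.4% in GFPlow and 22.9% to 29.4% in WT. In both cases the GFPlow libraries lay outside the range of the other 5.

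**Figure D1:**
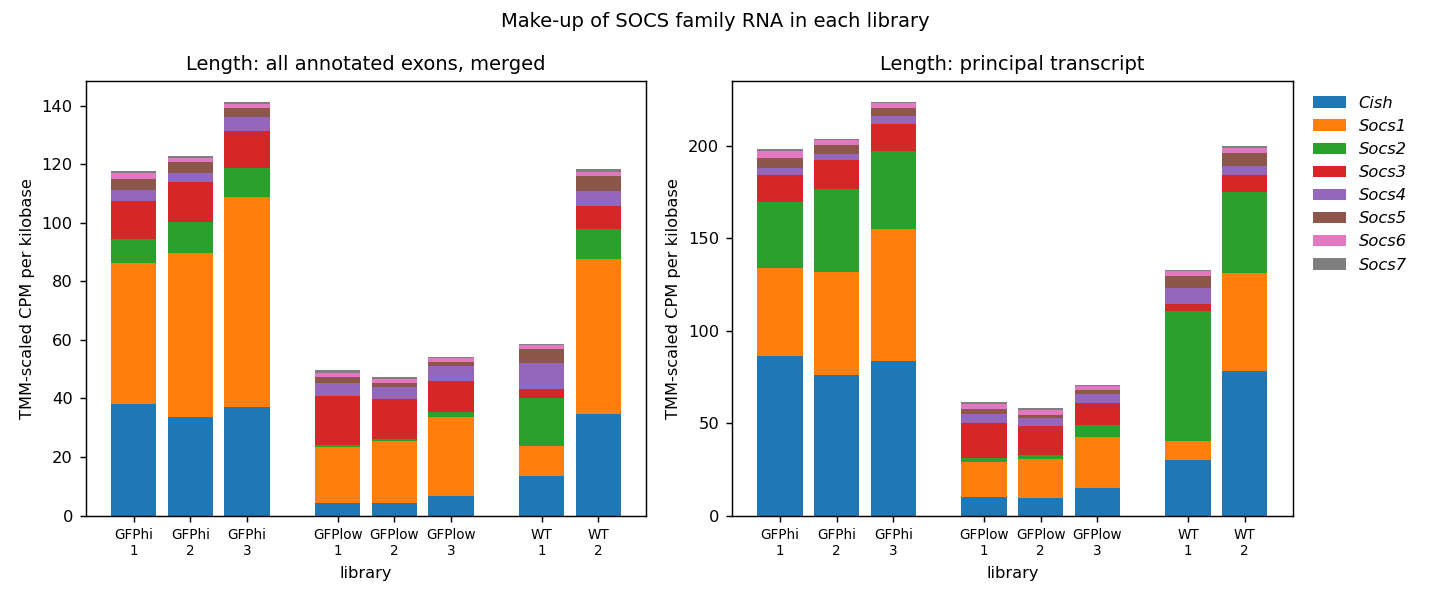
Stacked bars give the level of each SOCS family gene in each of the 8 libraries, as TMM-scaled CPM per kilobase of merged exons (left) or of the principal transcript (right). The 3 GFPlow bars are the lowest on the right and hold little Cish and Socs2, and on the left WT library 1, at 58.5, is near them.

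Cish encodes CIS, which binds activated cytokine receptors and is a feedback inhibitor of STAT5 signalling; in mouse T cells it also limits T cell receptor signalling. It had 246, 216.5 and 237 CPM in GFPhi, against 28.5, 26.6 and 43.3 CPM in GFPlow, with 85.9 and 223 CPM in WT. Every GFPhi library lay far above every GFPlow library, WT library 2 fell inside the GFPhi range, and WT library 1 fell between the populations. Mean CPM was 233 ± 15 in GFPhi and 32.8 ± 9.16 in GFPlow (SD, n = 3 each), a 7.11-fold higher level in GFPhi. The log2 fold change of GFPhi over GFPlow was 2.83 ± 0.371 (SE), with an adjusted p of 0.00931 in edgeR's quasi-likelihood test with Benjamini-Hochberg adjustment over all 18851 genes. In these bulk samples fewer cells that express a gene and less RNA per cell cannot be told apart. Cish (ENSMUSG00000032578, chr9:107296026-107302784, plus strand) overlaps the antisense gene Gm17041 over 479 exonic bases and the pseudogene Gm17040, on the opposite strand, over 261. The library kit does not mark strand, and the counting mode is not stated; over all 8 libraries Gm17040 had 124 counts and Gm17041 had 0.

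Socs2, a STAT5 target best known for restraining growth hormone signalling, differed by the largest factor of the 8 genes between these populations. It had 79.0, 99.2 and 92.7 CPM in GFPhi, against 4.48, 4.90 and 14.5 CPM in GFPlow, and 156 and 97.2 CPM in WT. The 3 GFPlow libraries were the lowest of all 8, and WT library 1 was the highest. Its mean was 90.3 ± 10.3 CPM in GFPhi and 7.96 ± 5.66 CPM in GFPlow (SD, n = 3 each), which is 11.3-fold higher in GFPhi, with a log2 fold change of 3.50 ± 0.488 (SE) and an adjusted p of 0.011 in the same test. As raw counts the GFPlow libraries held 240, 241 and 748 reads of Socs2 and the GFPhi libraries 4216, 5272 and 5002. Reads without molecular identifiers are not independent molecules, so these counts do not give the counting error.

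GFPlow library 3 was the highest of its group for 4 SOCS genes, Cish, Socs1, Socs2 and Socs4, and the lowest for Socs3, Socs6 and Socs7. The same library was the highest of its group for Foxp3 (4.82 CPM) and for Il2ra (16.3 CPM, against 7.27 and 11.6 CPM in GFPlow libraries 1 and 2). Its myeloid and NK cell marker sums were the highest of the 8 libraries. Its 5 myeloid markers summed to 223 CPM, of which Lyz2 gave 197, while the other 7 libraries had 0.32 to 28.7 CPM. Its 4 NK cell markers summed to 82.1 CPM, against 12.4 and 16.1 CPM in the other GFPlow libraries and 1.59 to 8.86 CPM in GFPhi and WT. The part of these cells in the levels of Cish and Socs2 was not tested. Without this library both genes were still called, with log2 fold changes of 3.08 for Cish and 4.27 for Socs2.

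Of the 8 SOCS family genes these 2, Cish and Socs2, passed an adjusted p of 0.05 between GFPhi and GFPlow, both higher in GFPhi. Over all genes tested 2.26% passed in either direction and 1.63% passed as higher, with 0.626% as lower. The median log2 fold change of the 8 was 0.66, against 0.01 over all genes. The libraries of GFPhi and GFPlow did not overlap for 4 of the 8, Cish, Socs1, Socs2 and Socs5, each with GFPhi above, whereas 30.0% of all genes did not overlap. The calls rest on few libraries: without GFPhi library 1, GFPlow library 1 or GFPlow library 2 neither gene passed, at adjusted p of 0.0516 to 0.0587, and without GFPhi library 2 only Cish did. With WT library 1 or WT library 2 left out of the fit, 4 of the 8 passed, Socs1 and Socs5 in addition, and at the same time 1984 or 1978 genes passed instead of 426. In such a fit WT is 1 library, the spread comes from GFPhi and GFPlow libraries alone, and the lone WT library is assumed to vary as they do. With all 8 libraries, DESeq2 called Cish, Socs2 and Socs5 but not Socs1 (adjusted p of 0.0841), and 1375 genes in all. On the same libraries limma voom called 2277 genes in all, and these 4 were among them.

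Socs1, an inhibitor of JAK kinases that limits interferon-gamma and IL-2 family signalling and is needed for stable Tregs in mice, was among these 4. It had 139, 163 and 209 CPM in GFPhi, against 55.6, 62.1 and 78.8 CPM in GFPlow, and 30.0 and 153 CPM in WT. GFPhi libraries were all above GFPlow libraries, but the WT libraries lay 5.11-fold apart, one below GFPlow and the other inside GFPhi. The log2 fold change of GFPhi over GFPlow was 1.38 ± 0.508 (SE), a 2.6-fold difference with an adjusted p of 0.31 by edgeR, and it moved little in the fit without WT library 1, at 1.37, where the adjusted p was 0.00279.

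Socs5 had 24.5, 22.7 and 18.2 CPM in GFPhi, against 12.6, 8.27 and 10.1 CPM in GFPlow, and 31.4 and 32.3 CPM in WT. SOCS5 has been reported to bind the IL-4 receptor and to act on the EGF receptor. Its groups fell into 3 separate ranges, WT highest and GFPlow lowest, and it is one of 2 genes, with Socs6, whose WT libraries agreed within a few percent. Its log2 fold change of GFPhi over GFPlow was 1.08 ± 0.226 (SE), with an adjusted p of 0.0547 by edgeR, just short of the threshold, and of 0.0126 without WT library 1.

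For Socs3, Socs4, Socs6 and Socs7 no difference between GFPhi and GFPlow was detected. Socs3, the inhibitor of gp130 receptors, had 37.3, 39.7 and 37.2 CPM in GFPhi, against 48.5, 40.1 and 30.7 CPM in GFPlow, and 9.09 and 23.0 CPM in WT. The GFPhi values lay inside the GFPlow range, and both were above the WT values. Its log2 fold change of GFPhi over GFPlow was -0.06 ± 0.33 (SE), and 0.10 without GFPlow library 1. Socs4, related to Socs5, had a log2 fold change of -0.19 with 22.2 to 33.2 CPM in GFPhi and 27.7 to 34.6 CPM in GFPlow. Socs6, which in mice binds the kinases Kit and Lck, ranged over 15.8 to 22.7 CPM in GFPhi and 13.1 to 16.6 CPM in GFPlow, with overlapping libraries. Socs7, an adaptor-like member that binds insulin receptor substrates, had 5.51 to 5.97 CPM in GFPhi and 4.11 to 6.99 CPM in GFPlow. Its mean level per kilobase was the lowest of the family in each population. Per kilobase of merged exons, however, Socs2 was below Socs7 in GFPlow libraries 1 and 2, at 0.4704 and 0.5137 against 0.9616 and 0.8166. The adjusted p of these 4 genes lay between 0.903 and 1.

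**Figure D2:**
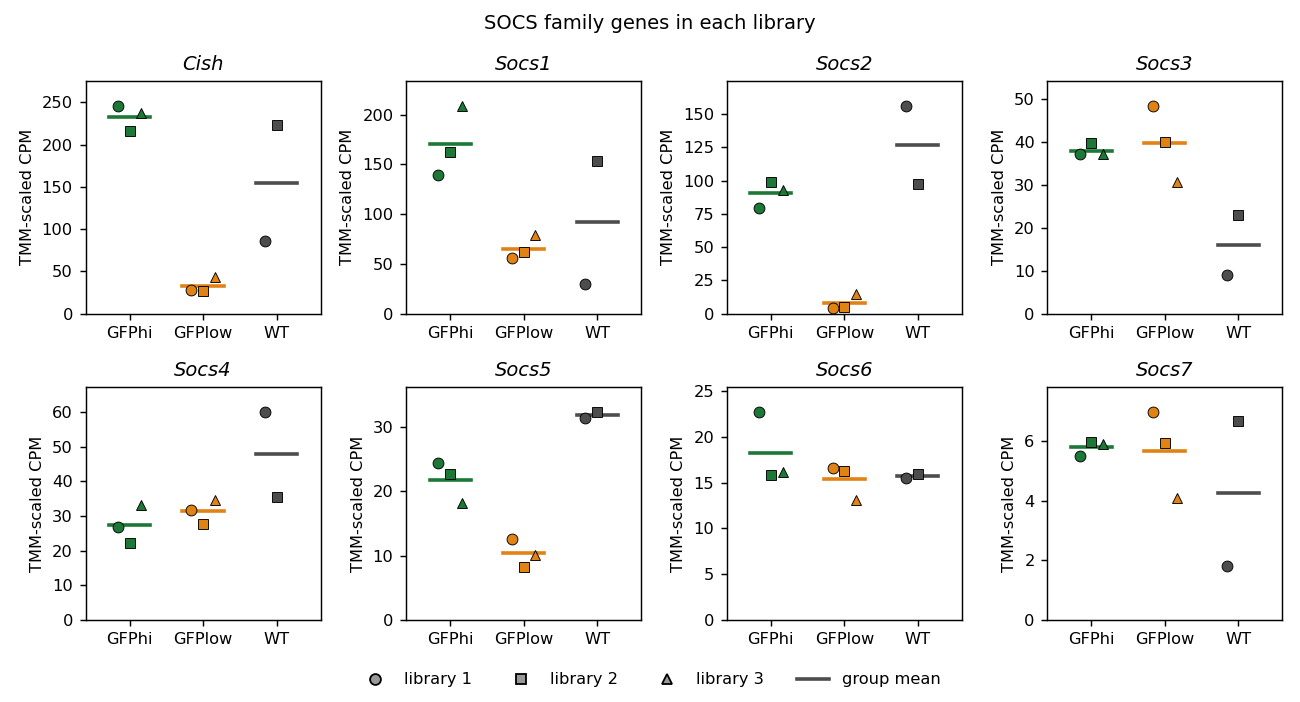
Each panel gives 1 SOCS family gene as TMM-scaled CPM (y axis, from 0) in the GFPhi, GFPlow and WT libraries; symbols mark the library number and lines the group mean. GFPhi points lie above GFPlow points for Cish, Socs1, Socs2 and Socs5, and the circle in WT is library 1, far from library 2 for Cish, Socs1, Socs3 and Socs7.

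Ratios of 2 SOCS genes within a library do not depend on the scaling between libraries. The count ratio of Cish to Socs3 was 6.59, 5.45 and 6.38 in GFPhi, against 0.587, 0.662 and 1.41 in GFPlow, and 9.46 and 9.72 in WT. The 3 groups did not overlap, and the WT libraries, 2.6-fold apart in Cish and 2.53-fold apart in Socs3, gave nearly the same ratio. Its geometric mean was 7.48-fold higher in GFPhi than in GFPlow. The ratio of Socs2 to Socs3 was 2.12, 2.50 and 2.49 in GFPhi, against 0.0925, 0.122 and 0.472 in GFPlow, and 17.2 and 4.23 in WT, again without overlap. The ratio of Socs2 to Cish was 0.322, 0.458 and 0.390 in GFPhi and 0.157, 0.184 and 0.335 in GFPlow, where the groups overlapped. For each of the 2 ratios to Socs3 an exact permutation test (two-sided) between GFPhi and GFPlow libraries gave p = 0.1, which is the smallest this design allows, and 0.136 after adjustment over 15 such tests. For Socs2 to Cish the same exact test gave 0.2, or 0.214 adjusted.

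Between GFPhi and WT, the comparison of Tregs with and without the transgene, no SOCS family gene passed edgeR's test, 0 of 8 where 0% of all genes passed. At an unadjusted p of 0.05, 2 of the 8 passed, Socs3 and Socs4, and 2588 of all genes; limma voom called 0 of the 8 and 0 genes in all. DESeq2 called 320 genes in all, but gave an adjusted p for only 2 of the 8, Cish (0.272) and Socs1 (0.231). The log2 fold changes of GFPhi over WT were 0.59 ± 0.393 for Cish, 0.89 ± 0.573 for Socs1 and -0.49 ± 0.488 for Socs2 (SE), and their adjusted p-values by edgeR were 0.453 to 0.606. A p that misses the threshold does not show that the levels are alike. WT library 2 fell inside the GFPhi range for 4 of the 8 genes, Cish, Socs1, Socs2 and Socs6, and WT library 1 for none.

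Socs3, Socs4 and Socs5 were the genes whose GFPhi and WT libraries did not overlap, 3 of 8 against 28.1% of all genes. Socs3 was above WT in all 3 GFPhi libraries, with a log2 fold change of 1.25 ± 0.386 (SE) and an adjusted p of 0.348 by edgeR. Socs4 had 26.8, 22.2 and 33.2 CPM in GFPhi, against 60.0 and 35.6 CPM in WT, which is a log2 fold change of -0.80. Without WT library 1 the log2 fold changes shrank to 0.73 for Socs3 and to -0.38 for Socs4, with adjusted p of 0.955 each. Socs5 kept about the same log2 difference, -0.55 with both WT libraries and -0.57 without library 1, and passed in neither. Socs7 had a log2 fold change of 0.44, which turned to -0.21 without WT library 1. When WT library 2 was left out instead, WT library 1 alone stood for the group. The median log2 fold change of GFPhi over WT was then 0.381 over all 20524 genes tested, against 0.077 in the main fit.

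Against WT, GFPlow cells had less Socs2, Cish and Socs5 RNA. In this comparison 3 of the 8 genes passed, all lower in GFPlow, while 3.30% of all genes passed in either direction, 2.23% as lower and 1.08% as higher. For Socs2 the log2 fold change was -3.99 ± 0.519 (SE), with an adjusted p of 0.00737 by edgeR. For Cish it was -2.24 ± 0.386 (SE), with an adjusted p of 0.0225, and for Socs5 -1.62 ± 0.247 (SE), with an adjusted p of 0.0129. Without WT library 1, with WT library 2 alone and the spread taken from the other groups, all 3 passed again, at -3.60, -2.76 and -1.64. Fitted on the libraries of these 2 groups alone, none of the 8 passed, where 33 genes did in all, and limma voom on all 8 libraries called Socs2 only. Without any 1 of the 6 GFPhi or GFPlow libraries Cish missed the threshold, at adjusted p of 0.0545 to 0.109 by edgeR, and Socs5 missed it without GFPlow library 2 or 3.

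The libraries of GFPlow and WT did not overlap for 5 of the 8 genes, Socs3 and Socs4 in addition, against 40.3% of all genes. The log2 fold change of GFPlow over WT was 1.31 ± 0.387 (SE) for Socs3, which DESeq2 called and edgeR did not (adjusted p of 0.11). Socs1 changed direction with the WT library: its log2 fold change was -0.49 with both, -1.22 without WT library 1 and 1.15 without WT library 2. These comparisons share the GFPlow or the WT libraries with the others, so their values are not independent of each other.

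**Figure D3:**
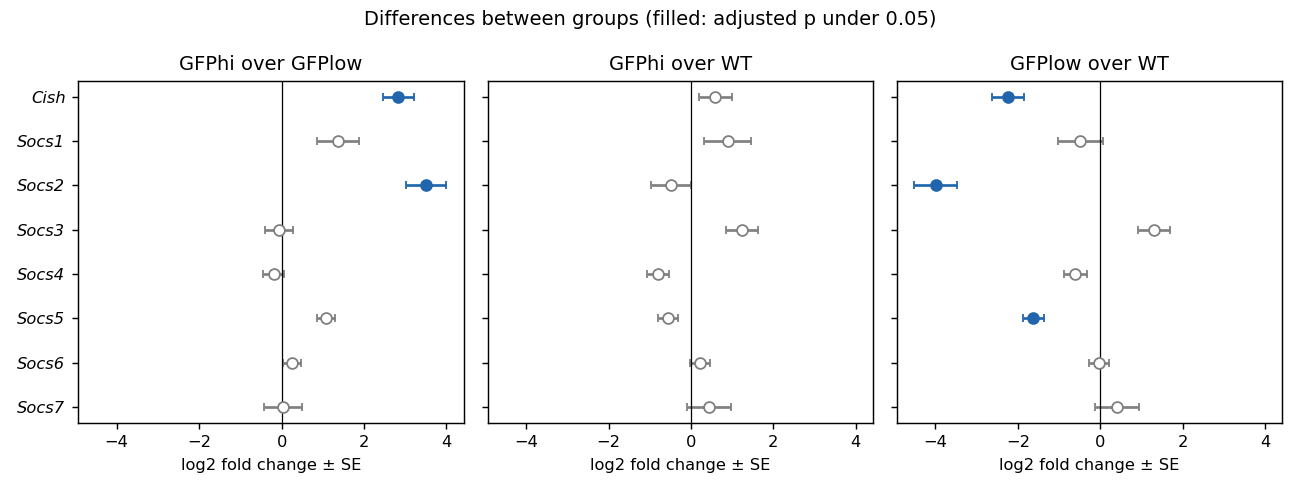
Points give the log2 fold change of each SOCS family gene, with its standard error, for GFPhi over GFPlow, GFPhi over WT and GFPlow over WT; filled points passed an adjusted p of 0.05 in edgeR. Cish and Socs2 are filled on the left at 2.83 and 3.50, no gene in the middle, and Cish, Socs2 and Socs5 on the right, below 0.

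The pathway around the SOCS genes was read from 11 gene lists in the same fit. Over all 18851 genes tested between GFPhi and GFPlow, 426 passed by edgeR and 2194 had an unadjusted p under 0.05. DESeq2 called 1375 of them and limma voom 2277. Among 8 receptors of the common gamma chain family, the receptors whose STAT5 signal CIS restrains, 2 rose and 1 fell in GFPhi relative to GFPlow. Il2ra, the alpha chain of the IL-2 receptor and a marker of Tregs, had 550, 572 and 611 CPM in GFPhi, against 7.27, 11.6 and 16.3 CPM in GFPlow, and 517 and 662 CPM in WT (log2 fold change of GFPhi over GFPlow 5.63 ± 0.347). Il2rb, the signalling beta chain, rose by a log2 fold change of 1.98, with 447 to 593 CPM in GFPhi and 121 to 143 CPM in GFPlow. Il7r, the IL-7 receptor chain, had 244 to 369 CPM in GFPhi and 622 to 717 CPM in GFPlow, and fell by 1.17 on the log2 scale. The adjusted p-values by edgeR were 0.00103, 0.0379 and 0.0247. Of the 8 receptors, 4 had an unadjusted p under 0.05, 4 were called by DESeq2, 5 by limma voom and 5 by edgeR without WT library 1.

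Of 9 other STAT5-responsive genes 2 rose in GFPhi relative to GFPlow, Il2ra again and Lta, which encodes lymphotoxin alpha (log2 fold change 2.16, adjusted p by edgeR 0.00138). The kinase gene Pim1 had 23.0 to 35.9 CPM in GFPhi and 13.1 to 15.5 CPM in GFPlow and did not pass, with an adjusted p of 0.0927. Pim2, a related kinase gene, had 61.2 to 87.3 CPM in GFPhi and 135 to 169 CPM in GFPlow, without overlap, and did not pass, with a log2 fold change of -1.02 and an adjusted p of 0.426. Of the 9 genes, 6 had an unadjusted p under 0.05, 3 were called by DESeq2, 7 by limma voom and 7 by edgeR without WT library 1. The median log2 fold change of this list was 0.54. No gene passed among the 11 JAK kinases and STAT factors, 0 of them at an unadjusted p of 0.05, 0 by DESeq2 and 1 by limma voom. Stat5a had 52.7 to 73.2 CPM in GFPhi and 30.4 to 49.5 CPM in GFPlow, and Stat5b had 133 to 151 CPM in GFPhi and 119 to 142 CPM in GFPlow. The receptors of the gp130, IL-12, IL-10 and interferon families, 12 of them tested, held 0 called genes, 4 at an unadjusted p of 0.05, 4 by DESeq2 and 5 by limma voom. The 9 STAT3-responsive genes held 0 called, with 2, 0 and 3 on the same 3 counts.

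Among the other brakes on the pathway, the elongin and cullin partners and the other SOCS box genes, none passed between GFPhi and GFPlow by edgeR on all 8 libraries, and 1 gene of each list did without WT library 1, Pias1, Elob and Spsb1. Of 11 other inhibitors of JAK and STAT signalling, such as the PIAS proteins and phosphatases, 0 were called, 0 had an unadjusted p under 0.05, 0 were called by DESeq2 and 1 by limma voom. Of 9 elongin and cullin partners 0 were called on any of these counts, and of 15 other SOCS box genes tested 0 were called, with 1 at an unadjusted p of 0.05, 0 by DESeq2 and 1 by limma voom. Spsb1 had 3.78 to 8.78 CPM in GFPhi and 15.4 to 29.1 CPM in GFPlow, without overlap, and an adjusted p of 0.391 by edgeR. Among 10 other reported targets of SOCS proteins, Igf1r, the receptor of insulin-like growth factor 1, rose, with 38.5 to 44.2 CPM in GFPhi and 12.1 to 21.7 CPM in GFPlow (log2 fold change 1.29, adjusted p by edgeR 0.0341). Among 7 ligands made by T cells 0 were called, with 2 by each of the other 3 counts; Il2 had 0.482 to 0.994 CPM in GFPhi and 2.28 to 5.57 CPM in GFPlow. Of 11 immediate early and heat shock genes 0 were called, with 1 at an unadjusted p of 0.05, 1 by DESeq2 and 2 by limma voom.

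**Figure D4:**
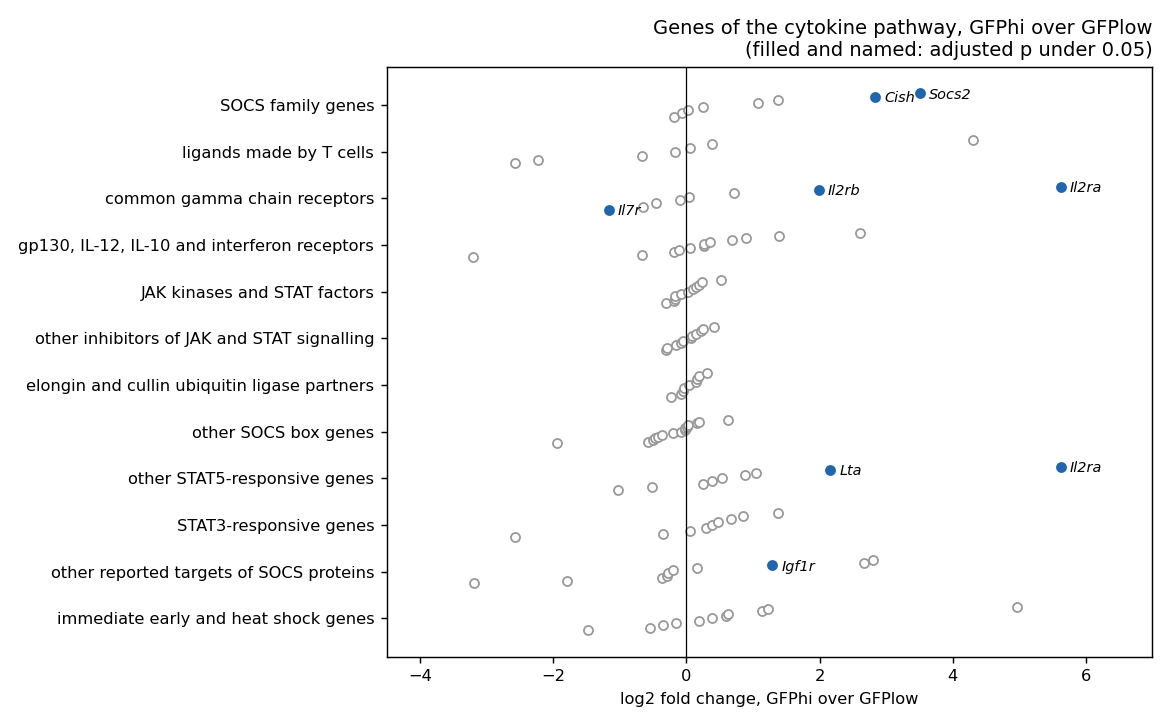
Each circle is a tested gene of the pathway lists, placed by its log2 fold change of GFPhi over GFPlow; filled circles passed an adjusted p of 0.05 and carry their gene symbol. Filled circles are Cish and Socs2, the receptor genes Il2ra, Il2rb and Il7r, the STAT5-responsive gene Lta, and Igf1r, and Il2ra appears in 2 lists.

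Between GFPhi and WT 0 genes of any of the 11 lists were called by edgeR, with 0 to 4 a list at an unadjusted p of 0.05. limma voom called none. DESeq2 called 4 of the 5 elongin and cullin genes for which it gave an adjusted p and no gene of the other 10 lists, where it gave one for 0 to 6 genes a list. These 4 genes were far higher in WT library 1 than in WT library 2. Elob, a subunit that binds the SOCS box, had 257, 285 and 276 CPM in GFPhi, against 1220 and 280 CPM in WT. In WT, Eloc had 512 and 140 CPM, Rbx1 1540 and 409 CPM, and Nedd8 1020 and 265 CPM. Cul5, Cul2 and Arih2 of the same list were lower in WT library 1 than in WT library 2. DESeq2 calls without WT library 1 were not read for this list. Between GFPlow and WT, Il2ra, Lta and the survival gene Bcl2 fell among the STAT5-responsive genes, and Igf1r fell among the targets, by 1.46 on the log2 scale. Il7r rose in GFPlow. The transcription factor gene Batf and the RNA-decay factor gene Zfp36 were the only other genes of these 11 lists called, Zfp36 as higher and Batf as lower in GFPlow. Of these genes limma voom called Il2ra and Lta only. Without WT library 1, edgeR called all of them again, Il2ra, Lta, Bcl2, Igf1r, Il7r, Batf and Zfp36.

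The genes whose levels ran most like each SOCS gene over the 8 libraries were found by Pearson correlation of log2 CPM, as a description over points that share 3 groups. For Cish they were Cd74, Tnfrsf1b and Cep85l (r of 0.987 to 0.988). For Socs2 they were Cd86, Cd79b and Tnfsf10 (0.987 to 0.994). Cd79b, a B cell receptor chain, had 43.2 to 50.1 CPM in GFPhi, 3.03 to 11.2 CPM in GFPlow, and 70.4 and 50.6 CPM in WT. The B cell marker list summed to 44.6 to 51.7 CPM in GFPhi, 5.59 to 11.8 CPM in GFPlow, and 73.8 and 53.0 CPM in WT, and 1 of the 3 tested was called between GFPhi and GFPlow. The part of B cell RNA in the level of Socs2 was not tested. For Socs1 they were C2cd5, Xbp1 and Lta4h (0.981 to 0.99), for Socs3 Mcoln1, Mcu and Adamts10 (0.986 to 0.99) and for Socs5 Ldlrad4, H2-Oa and Far1 (0.98 to 0.982). The 3 nearest to Socs7, Csnk1d, Stx12 and Nedd1 (0.983 to 0.985), were all low in WT library 1, as was Socs7 itself. The genes named for Socs1 and for Socs3 were likewise all lowest in WT library 1, as were Socs1 and Socs3. Socs4 (Sun2, 0.96) and Socs6 (Timp2, 0.958) had less similar neighbours.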

How the data were processed

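Sorted cells were lysed and amplified with SMART-Seq HT, and Nextera XT gave the 8 sequencing libraries, per the labels' protocols. For alignment and counting, the submitters' processing notes name HTSeq 0.11.2, HISAT2 2.1.0 and SAMtools 1.9 with the build GRCm38, and for statistics R 4.0 with edgeR. Their settings are not named there. The authors deposited raw read counts per gene, which were used as deposited; 54808 of 54837 identifiers matched GENCODE vM21. In R 4.3.3, edgeR 4.0.16 was run with its filter by expression, TMM scaling and robust quasi-likelihood fits of 1 mean per group over all 8 libraries (5 residual degrees of freedom). Calls used a two-sided Benjamini-Hochberg adjusted p of 0.05. The procedure was tested on simulated data with 200 changed genes, and the outcome is not given here. All other genes had the same mean level in every library, so no simulated library deviated as WT library 1 did. DESeq2 1.42.0 and limma 3.58.1 (voom) were alternatives. Correlations used log2 CPM with a prior count of 2 and genes with a mean log2 CPM above 3. The 8 genes, the pathway lists and the marker lists were chosen with earlier results of these data known, and so support nothing by their choice. From each list up to 3 genes with the smallest adjusted p were eligible to be named. Jak3 and Lyz2 were named after their values were seen. A marker gene and 1 pathway list are not reported here. Intervals on counts were not used, since reads without molecular identifiers are not independent molecules.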

Additional observations from a re-analysis of the deposited data

How the results depend on the processing

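Each comparison was repeated under 21 alternatives, of which 3 that leave out WT library 1 were added after the data were seen. Where 1 WT library is left out, the other is assumed to vary like the GFPhi and GFPlow libraries. The labels do not say what the library numbers mark, and deviations of same-numbered GFPhi and GFPlow libraries correlated at 0.0671, 0.0662 and 0.149, so the numbers were not used as pairs, although each library correlated best with its own number, a hint from the data and not the design. With this replicate block in edgeR 182 genes and 2 SOCS genes passed between GFPhi and GFPlow, and 0 and 0 between GFPhi and WT. Between GFPlow and WT 158 and 1 passed, where Socs2 passed and Cish (adjusted p of 0.0936) and Socs5 (0.0813) did not. The block joins each WT library to the GFPhi and GFPlow libraries of its number. WT mice lacked the TIM-3 allele, so a number cannot mark 1 mouse there, and what the block stands for against WT is not known. Genes called for GFPhi against GFPlow were 426 in the main fit, 1375 by DESeq2, 2277 by limma voom, 2105 on the libraries compared alone and 1752 there with the block, 105 to 1984 when 1 library was left out, and 3246, 2172 and 1744 on 7 libraries by DESeq2, voom and edgeR with the block. The SOCS genes called were 4 under voom, on the libraries compared (with or without the block) and in the 3 fits on 7 libraries, and 0 to 4 when 1 library was left out. For GFPhi against WT the counts were 1 gene with no filter, 320 by DESeq2, 22 on the libraries compared with the block, 72, 1 and 4 on 7 libraries, and 0 to 8234 when 1 library was left out, with 0 to 5 SOCS genes. For GFPlow against WT they were 623 in the main fit, 3243 by DESeq2, 74 by voom, 33 on the libraries compared, 217 there with the block, 2449 by DESeq2 and 1509 by voom on 7 libraries, and 213 to 9002 when 1 library was left out. SOCS genes called there were 1 by voom, 0 on the libraries compared, 5 by DESeq2 on 7 libraries, and 1 to 7 when 1 library was left out. Sign changes touched only genes near 0 or split between the WT libraries. Leaving out 1 library moved the log2 fold change of GFPhi over GFPlow from -0.22 to 0.10 for Socs3 and from -0.16 to 0.21 for Socs7. For GFPhi over WT, Socs7 was at -0.2076, -0.2018 and -0.1396 on 7 libraries by DESeq2, voom and the block, and -0.2072 to 1.70 when 1 library was left out, and Cish was at -0.12 with the block on 7 libraries. For GFPlow over WT, Socs7 was at -0.2327, -0.2304 and -0.1951 on 7 libraries, and -0.2314 to 1.67 when 1 library was left out. Socs6 was at 0.0033 with no filter, 0.0491 with the block, 0.0582 on the libraries compared with the block, and -0.0974 to 0.0654 when 1 library was left out, and Socs1 ran from -1.22 to 1.15. The cause was not tested. Cish passed between GFPhi and GFPlow in 18 of 21 alternatives, Socs2 in 17, Socs5 in 11 and Socs1 in 8; Socs3, Socs4, Socs6 and Socs7 passed in 0, with adjusted p of 0.351 to 1.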

Other observations

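GFPhi library 1 and GFPlow library 1 held more RNA of the AP-1 gene Jun than the libraries numbered 2 and 3: 86.4, 7.27 and 7.17 CPM in GFPhi, against 55.9, 4.23 and 5.25 CPM in GFPlow, and 3.5 and 1.45 CPM in WT. Junb had 478, 202 and 198 CPM in GFPhi, against 378, 143 and 151 CPM in GFPlow. In Socs3 the library numbered 1 was the highest of GFPlow but not of GFPhi. The gene Jak3, the kinase bound by the common gamma chain, had 100, 79.4 and 72.5 CPM in GFPhi, against 3.89 and 72.9 CPM in WT. Lif, a cytokine that signals through gp130, had 4.89, 3.26 and 2.09 CPM in GFPhi and 0, 0.244 and 0.271 CPM in GFPlow, and did not pass edgeR's test (adjusted p of 0.0864).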
